A study of Mus musculus with 96 samples.

Results

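The injury response of the hippocampus at 3 days post-injury (dpi) was examined here within mice that received candesartan. Of 96 RNA-seq libraries in the series, 48 were from 3 dpi and 16 of those were from the hippocampus. The comparison used the 4 hippocampal libraries labelled as injured and candesartan-treated (TBI + CD) and the 4 labelled as sham-operated and candesartan-treated (Sham + CD), so that the control mice carried the drug as well. All genes of the count table were considered. The animals were male C57BL/6 mice of 8 to 10 weeks. TBI was a unilateral controlled cortical impact, delivered to the cortex through a craniectomy, and Sham mice had a scalp incision without craniectomy, so that impact and craniectomy cannot be told apart. Both groups were injected intraperitoneally with candesartan at 0.1 mg/kg at 6, 24 and 48 h, and the ipsilateral hippocampus was taken at 3 dpi. The vehicle groups (Sham + VH and TBI + VH, 4 libraries each) and the thalamus and hypothalamus of the candesartan groups (4 libraries per group and region) served to show where the response differed. The vehicle libraries also entered the common estimate of spread, and Sham + VH served as another control. The labels do not say that replicates are separate mice, and p-values measure the spread between these libraries.

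Controlled cortical impact damages the cortex directly above the hippocampus. In the first days after such an injury astrocytes become reactive, microglia proliferate and take up debris, and blood monocytes enter the tissue and become macrophages. Candesartan blocks the angiotensin II type 1 receptor, encoded by Agtr1a and Agtr1b in the mouse, and is used in the clinic to lower blood pressure. The hippocampus consists of the dentate gyrus, whose granule cells are born throughout life, and the pyramidal cell fields CA1 to CA3.

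Total counts ranged from 20531000 to 26575000 in the 8 libraries. Levels are given as CPM, the counts scaled by the normalised size of the library, and are listed in the order of replicates 1 to 4. The tissue expressed its defining genes: Prox1, the transcription factor of granule cells, was at 42.3 to 66.1 CPM and Wfs1, a marker of CA1 pyramidal cells, at 131 to 197 CPM in Sham + CD. The summed level of 15 genes of the neighbouring thalamus and cortex overlapped between groups, at 218 to 267 CPM in Sham + CD and 229.7 to 263 CPM in TBI + CD. A pair of injured libraries stood apart. TBI + CD replicate 1 had a high level of choroid plexus genes, with Ttr, the transthyretin gene of that epithelium, at 2379.9 CPM against 7.89 to 129.7 CPM in replicates 2 to 4. TBI + CD replicate 3 had the highest levels of hemoglobin Hbb-bs (74.95 CPM) and of heme oxygenase Hmox1 (213 CPM). Where a named DEG lost its call or moved by over 1.5 times when 1 candesartan library was left out, the log2 fold change without it is given as well. Of the Sham + VH libraries, also used as a control here, 3 of 4 had a high level of choroid plexus genes. In bulk tissue, fewer cells of a type and less RNA per cell cannot be told apart.

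Injury in candesartan mice raised more genes than it lowered. Of 16756 genes tested with edgeR's quasi-likelihood test, 3360 were differentially expressed genes (DEGs, false discovery rate under 0.05 and absolute log2 fold change over 0.32), which is 20.1% of the genes. Of these, 2410 rose (14.4%) and 950 fell (5.67%). The median log2 fold change was 0.86 among the increases and -0.42 among the decreases, while the median over all genes was -0.0024. At the FDR alone, without the fold threshold, 3107 genes rose and 2463 fell, a more even split. A log2 fold change over 1 was reached by 1042 increases and by 35 decreases. Groups did not overlap for 2146 of the increases and 781 of the decreases, and among all genes tested they did not overlap for 2978 that were higher (17.8%) and 2210 that were lower (13.2%). The number of decreases depended on the control group and on a single library: 311 genes fell when TBI + CD was compared with Sham + VH, and 631 fell without TBI + CD replicate 3, while the increases numbered 1719 and 2261 in the same settings.

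**Figure D1:**
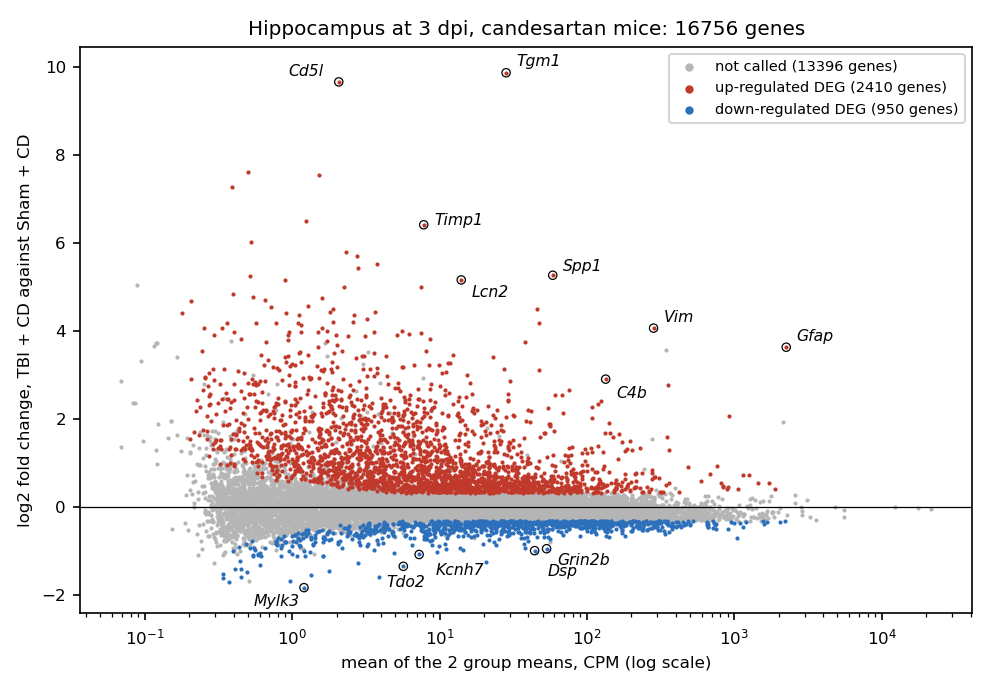
Log2 fold change of TBI + CD over Sham + CD (y axis) against the mean of the group means in CPM (x axis, log scale) for 16756 genes of the hippocampus at 3 dpi, with DEGs in colour. The 2410 increases reach further from 0 than the 950 decreases, which lie mostly between 0 and -1.

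The largest increases were in genes of reactive glia and phagocytes. Tgm1, a transglutaminase that crosslinks proteins, was at 0.0912, 0.0401, 0.0496 and 0.0426 CPM in Sham + CD and at 31.3, 27.6, 105 and 61.5 CPM in TBI + CD, a log2 fold change of 9.87 ± 0.88 (SE; FDR = 4.41e-07). Cd5l, a protein secreted by macrophages, had no count in any Sham + CD library and was at 1.398, 2.01, 6.18 and 6.97 CPM in TBI + CD. It was at least 129-fold higher, taking 3 counts over the group as the floor. Cst7, which encodes the cysteine protease inhibitor cystatin F, had 1 count in Sham + CD, and the ratio of its counts was 277 with a 95% counting interval of 49.3 to 11000. Its TBI + CD levels were 2.75, 1.93, 3.87 and 3.57 CPM, above every sham library. Timp1, an inhibitor of matrix metalloproteinases, rose from 0.274, 0.241, 0.0496 and 0.128 CPM to 9.74, 6.43, 24.9 and 20.7 CPM (log2 fold change 6.41 ± 0.68, FDR = 2.39e-06). The scavenger receptor gene Msr1 rose from 0.0456, 0.1203, 0.0991 and 0.128 CPM to 2.24, 1.34, 12.7 and 5.21 CPM (log2 fold change 5.69 ± 0.83, FDR = 6.37e-05). Without replicate 3 the log2 fold change of Msr1 was 4.83. Replicate 3 was the highest injured library for Tgm1, Timp1 and Msr1, and no sham library reached the lowest injured one. Cd72, a lectin-like inhibitory receptor, rose from 0.0401–0.0991 to 3.27–6.13 CPM (log2 fold change 5.79 ± 0.62). Lilrb4 and Gp49a are near-identical immunoglobulin-like receptor genes of myeloid cells whose reads may be shared, and they rose by 5.53 and 6.51 on the log2 scale. Gp49a rested on 2 counts in Sham + CD, and the ratio of its counts was 116 with an interval of 31.8 to 963. Without injured replicate 3 their log2 fold changes were 4.80 for Lilrb4 and 5.71 for Gp49a. The single sham count of Cst7 was in Sham + CD replicate 3, without which no sham library had a count.

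The smallest FDR values belonged to genes with little spread between replicates. C4b, which encodes complement component 4, was at 30.5, 34.9, 28.7 and 32.00 CPM in Sham + CD and 258, 221, 237 and 229 CPM in TBI + CD (log2 fold change 2.90 ± 0.12, FDR = 1.02e-10), with the caveat that C4a is a near-identical copy. Hspb6, a small heat shock protein gene, rose from 4.01, 3.65, 3.12 and 2.897 CPM to 26.3, 20.7, 29.9 and 31.7 CPM (log2 fold change 2.99 ± 0.18, FDR = 2.24e-08). Unc93b1, which carries nucleic acid-sensing Toll-like receptors to endosomes, rose from 12.7, 12.3, 12.4 and 12.1 CPM to 46.6, 41.6, 57.6 and 60.5 CPM (log2 fold change 2.06 ± 0.13, FDR = 2.24e-08). In all 3 genes the injured libraries lay well above the shams and differed from one another by less than the gap. Ctsh, encoding the lysosomal protease cathepsin H, rose from 6.69–7.89 to 30.1–41.7 CPM. Aspg, an asparaginase gene, rose from 1.93–2.73 to 15.1–21.99 CPM. Chil1, a chitinase-like gene of astrocytes, rose from 7.83–9.21 to 28.4–33.5 CPM. Selplg, which encodes a ligand of P-selectin, rose from 28.03–34.9 to 59.3–66.5 CPM, and Aldh3b1, an aldehyde dehydrogenase gene, from 3.32–3.69 to 10.7–12.8 CPM. The FDR of these 5 genes ranged from 2.24e-08 to 5.00e-08.

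Reactive astrocyte genes rose almost as a whole. Of 25 members tested, 23 rose and none fell, with a median log2 fold change of 2.51, where 14.4% of all genes rose. Gfap, the intermediate filament protein by which reactive astrocytes are recognised, was at 311, 415, 295 and 322 CPM in Sham + CD and 3805, 3391, 4432 and 4999 CPM in TBI + CD (log2 fold change 3.63 ± 0.19, FDR = 4.40e-09). Vim, which encodes the partner filament vimentin, rose from 34.2, 37.3, 25.9 and 30.1 CPM to 443, 367, 571 and 755 CPM (log2 fold change 4.06 ± 0.27, FDR = 5.00e-08). Serpina3n, a secreted serine protease inhibitor, rose from 82.1, 93.1, 88.04 and 98.2 CPM to 606, 500.0, 562 and 794 CPM (log2 fold change 2.77 ± 0.19). Replicate 4 was the highest injured library for all 3 genes, and replicate 2 the lowest. Lcn2, which binds iron-carrying siderophores, rose from 0.456, 0.1604, 1.93 and 0.639 CPM to 16.9, 13.7, 51.2 and 27.2 CPM (log2 fold change 5.16 ± 0.58). Its sham libraries differed among themselves more than those of Gfap, and still did not overlap the injured ones. Without Sham + CD replicate 3 the log2 fold change of Lcn2 was 6.03.

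Genes of resting astrocytes changed by smaller amounts. Of 18 members, 11 rose and 1 fell, with a median of 0.44. Of all genes 14.4% rose and 5.67% fell, so that the share of decreases was near that of all genes. Aldh1l1, a folate enzyme gene used as a pan-astrocyte marker, rose from 52.6–64.2 to 127–175 CPM (log2 fold change 1.34 ± 0.13). Aqp4, the water channel of astrocyte end-feet, rose from 111–122 to 226–397 CPM (1.29 ± 0.18). Mlc1, a membrane protein of the same end-feet, rose by 0.77 ± 0.061 and the gap junction gene Gja1 by 0.76 ± 0.093 on the log2 scale. Glul, which encodes glutamine synthetase, had a log2 fold change of 0.099 ± 0.051 (FDR = 0.147) and did not pass the test. The member that fell was Gpc5, a cell surface glypican gene (-0.36 ± 0.073, FDR = 0.00125).

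**Figure D2:**
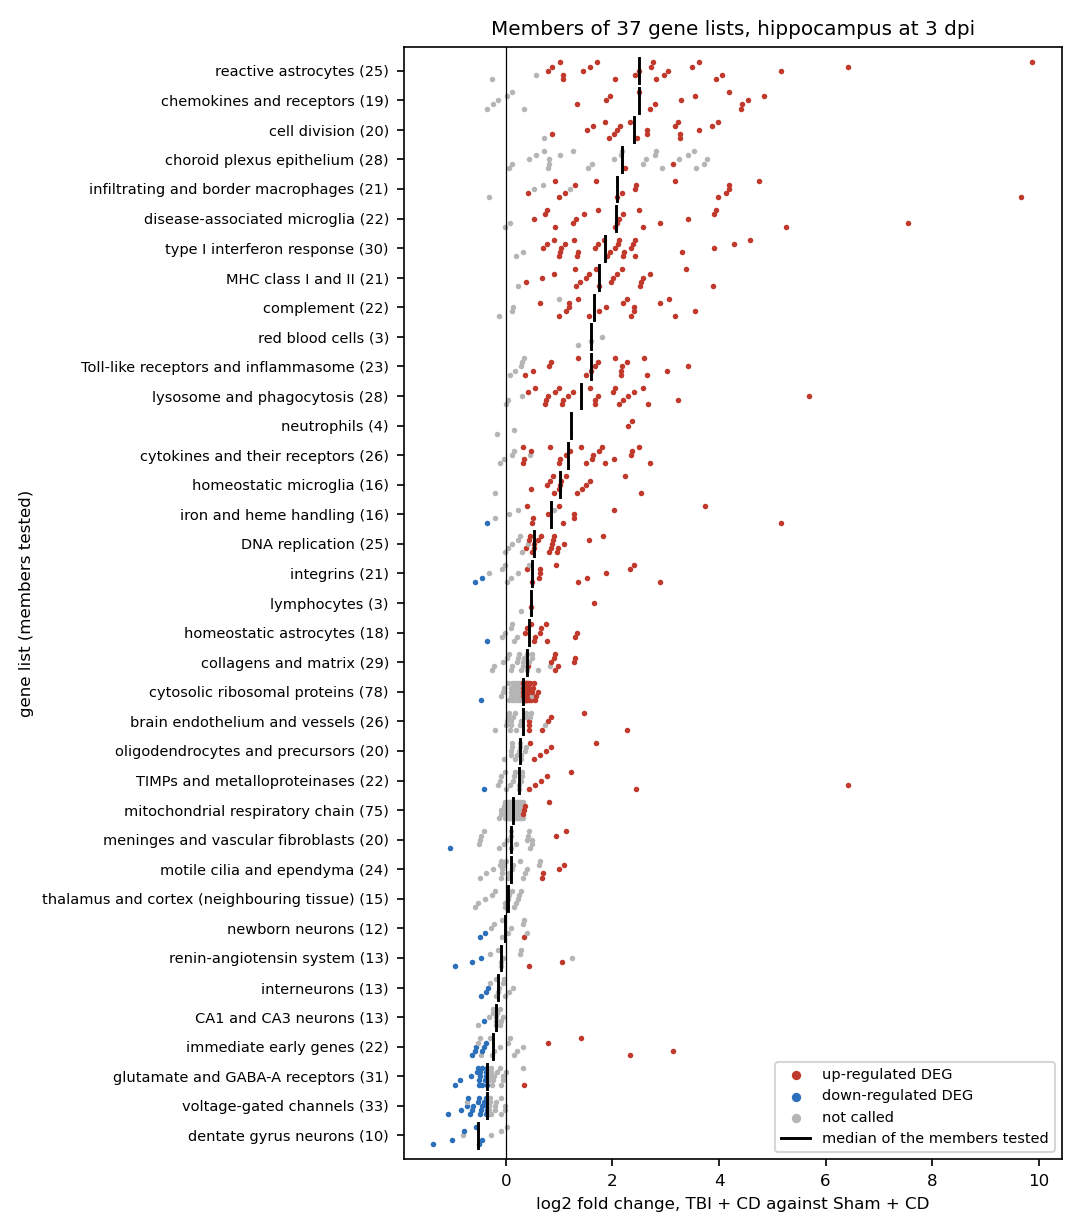
Log2 fold change of TBI + CD over Sham + CD (x axis) for each member tested of 37 gene lists (y axis), with DEGs in red and blue, other members in grey and the median of the list as a bar. The medians of the reactive astrocyte (2.51), chemokine (2.50) and cell division (2.40) lists lie furthest to the right, and that of the dentate gyrus list (-0.53) furthest to the left. The chemokine median covers the 19 of 32 genes that passed the filter on low counts.

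Microglial genes rose in both their resting and their phagocytic programmes. Of 16 genes of homeostatic microglia, 15 rose and none fell (median 1.02), where 14.4% of all genes rose. Csf1r, the receptor on which microglia depend for survival, rose from 112, 99.1, 102 and 95.01 CPM to 258, 248, 330.4 and 319.7 CPM (log2 fold change 1.501 ± 0.11, FDR = 7.03e-08). P2ry12, a purinergic receptor gene that marks resting microglia, rose from 25.95, 25.7, 26.8 and 29.99 CPM to 45.99, 44.1, 63.5 and 63.5 CPM (log2 fold change 1.001 ± 0.12). Tmem119, a microglial surface marker, rose from 26.4, 21.01, 20.4 and 21.2 CPM to 46.5, 43.3, 56.3 and 48.8 CPM (1.13 ± 0.11). All 3 genes rose by a factor of about 2 to 3 without overlap, and replicates 3 and 4 held the highest injured values. Cx3cr1, the fractalkine receptor gene, rose by 1.34 ± 0.13. The Fc receptor-like gene Fcrls rose by 2.54 ± 0.24 and the secreted glycoprotein gene Olfml3 by 2.24 ± 0.16. Sparc, a matrix-binding glycoprotein gene, rose from 365, 371, 361 and 249 CPM to 587, 626, 662 and 655 CPM, and its sham replicate 4 stood below the others. Mef2a, a transcription factor gene also used by neurons, was the exception, with -0.21 ± 0.082 (FDR = 0.0606).

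Disease-associated microglia are a phagocytic state described around plaques and dying cells. Of 22 genes of this state, 20 rose and none fell, with a median of 2.07, where 14.4% of all genes rose. Spp1, encoding osteopontin, rose from 3.97, 2.57, 3.17 and 2.26 CPM to 27.6, 35.6, 277 and 117 CPM (log2 fold change 5.27 ± 0.82, FDR = 1.22e-04), and replicate 3 was 10-fold above replicate 1. Without replicate 3 the log2 fold change of Spp1 was 4.35. Clec7a, which encodes the pattern receptor dectin-1, rose from 0.182, 0.241, 0.149 and 0.383 CPM to 3.08, 2.45, 4.897 and 4.45 CPM (3.91 ± 0.45). Lgals3, encoding galectin-3, rose from 0.958, 1.04, 0.545 and 0.469 CPM to 8.95, 5.76, 19.6 and 12.4 CPM (3.94 ± 0.52). Gpnmb, a transmembrane glycoprotein gene of lipid-laden phagocytes, rose from 3.28, 4.57, 2.78 and 4.94 CPM to 35.9, 32.4, 38.3 and 61.3 CPM (3.42 ± 0.34, FDR = 1.22e-06). Injured values of Spp1 spread the most of these, and those of Gpnmb and Clec7a lay within a factor of about 2. Apoe, the lipid carrier, rose from 1280.4–1508 to 1962–2134 CPM, a smaller change of 0.54 ± 0.058. Of 28 genes of lysosome and phagocytosis, 25 rose and none fell (median 1.42), again beside 14.4% of all genes. The cathepsin gene Ctsd rose from 345–365 to 1059.8–1948 CPM (2.06 ± 0.20), Ctsb by 0.93 ± 0.11 and Ctss by 2.01 ± 0.14. Cd68, an endosomal glycoprotein gene of phagocytes, rose by 2.57 ± 0.28 and Lamp1, a lysosomal membrane gene of all cells, by 0.55 ± 0.071.

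Genes of infiltrating and border macrophages rose in 17 of 21 members tested, where 14.4% of all genes rose. Their median of 2.08 did not move when Cd5l was set to its bound. Lyz2, the lysozyme of myeloid cells, rose from 6.02, 4.73, 3.72 and 5.28 CPM to 58.99, 52.3, 133 and 115 CPM (log2 fold change 4.18 ± 0.43, FDR = 1.66e-06). Ccr2, the receptor by which monocytes are recruited, rose from 0.137, 0.1203, 0.0496 and 0 CPM to 1.07, 1.14, 2.19 and 1.52 CPM (4.18 ± 0.57). Fcgr4, an activating Fc receptor gene, rose from 0.0426–0.248 to 1.81–4.61 CPM, Ms4a7 of border macrophages from 0.1203–0.511 to 0.885–3.21 CPM, and the scavenger receptor gene Stab1 from 12.2–20.8 to 49.8–86.4 CPM. Fn1, the fibronectin gene that vessels also express, was higher by 0.92 ± 0.26, with overlapping groups. Without Sham + CD replicate 3 the log2 fold change of Fcgr4 was 5.35.

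Few markers of neutrophils and lymphocytes passed the filter on low counts. Of 14 neutrophil genes 4 passed it and 2 of these rose, where 14.4% of all genes rose. Their summed level was 6.64 to 14.2 CPM in Sham + CD and 21.6 to 33.5 CPM in TBI + CD, where most of it came from Csf3r. S100a8, an abundant neutrophil protein gene, was at 1.14, 0.2005, 0.0991 and 0.1704 CPM in Sham + CD and 0.746, 0.237, 0.402 and 0.0801 CPM in TBI + CD (-0.16 ± 0.69, FDR = 0.884). The neutrophil genes that rose were Il1r2, a decoy receptor of interleukin 1 (0.0496–0.137 to 0.237–0.841 CPM, 2.36 ± 0.51), and Csf3r, the G-CSF receptor gene, which microglia also express (4.31–6.16 to 17.7–27.7 CPM, 2.29 ± 0.16). Of 19 lymphocyte genes 3 passed the filter, and their summed level was 2.13 to 2.97 CPM and 3.75 to 4.38 CPM in the 2 groups. The T cell receptor component gene Cd3e had no count in Sham + CD and 0.186, 0, 0 and 0.1202 CPM in TBI + CD. The cytotoxic granule gene Nkg7 was likewise at 0 in Sham + CD and at 0.0466, 0.0394, 0 and 0 CPM after injury. The B cell receptor component gene Cd79b was higher by 1.66 ± 0.44 with overlapping groups, Cd79a did not pass the filter, and the kinase gene Lck rose from 1.48–1.88 to 2.23–2.45 CPM (0.47 ± 0.16, FDR = 0.0301). The log2 fold change of Cd79b was 2.41 without Sham + CD replicate 1. Lck was not called without Sham + CD replicate 1 or 2 (0.44 and 0.42), nor without TBI + CD replicate 1 or 2 (0.47 and 0.45).

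Iron and heme genes rose in 11 of 16 members, and 1 fell. Of all genes 14.4% rose and 5.67% fell, so that the share of decreases was near that of all genes. Hmox1, which degrades heme, rose from 4.84, 5.69, 4.71 and 5.79 CPM to 17.9, 19.05, 213 and 31.8 CPM (log2 fold change 3.75 ± 0.67, FDR = 4.26e-04). The injured replicates 1, 2 and 4 were already 3-fold or more above the shams, and replicate 3 was far above them. Without replicate 3 the log2 fold change of Hmox1 was 2.14. Ftl1, the ferritin light chain, rose from 112, 111, 105 and 95.01 CPM to 195, 188, 402 and 241 CPM (1.28 ± 0.18, and 0.99 without replicate 3), and the heavy chain gene Fth1 rose by 0.40 ± 0.11. The member that fell was Tfrc, the transferrin receptor gene (105–134 to 79.1–96.6 CPM, -0.36 ± 0.080). Trf, which encodes transferrin, rose from 178–237 to 431–602 CPM, and Slc11a1, a phagosomal iron transporter gene, by 2.03 ± 0.24. The hemoglobin genes did not pass the test: Hbb-bs was at 8.99, 9.06, 1.69 and 17.8 CPM and 19.7, 10.5, 74.95 and 26.00 CPM in the 2 groups (FDR = 0.0906), Hba-a2 at 3.52 to 22.2 and 12.1 to 87.5 CPM, and the heme synthesis gene Alas2 at 0.0802 to 0.682 and 0.197 to 1.94 CPM. The sum over these blood genes was highest in replicate 3, as were Hmox1 and Ftl1, and the part of blood in those values was not tested. Tfrc fell under the fold threshold without Sham + CD replicate 3 (-0.28) and without TBI + CD replicate 3 (-0.28).

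**Figure D3:**
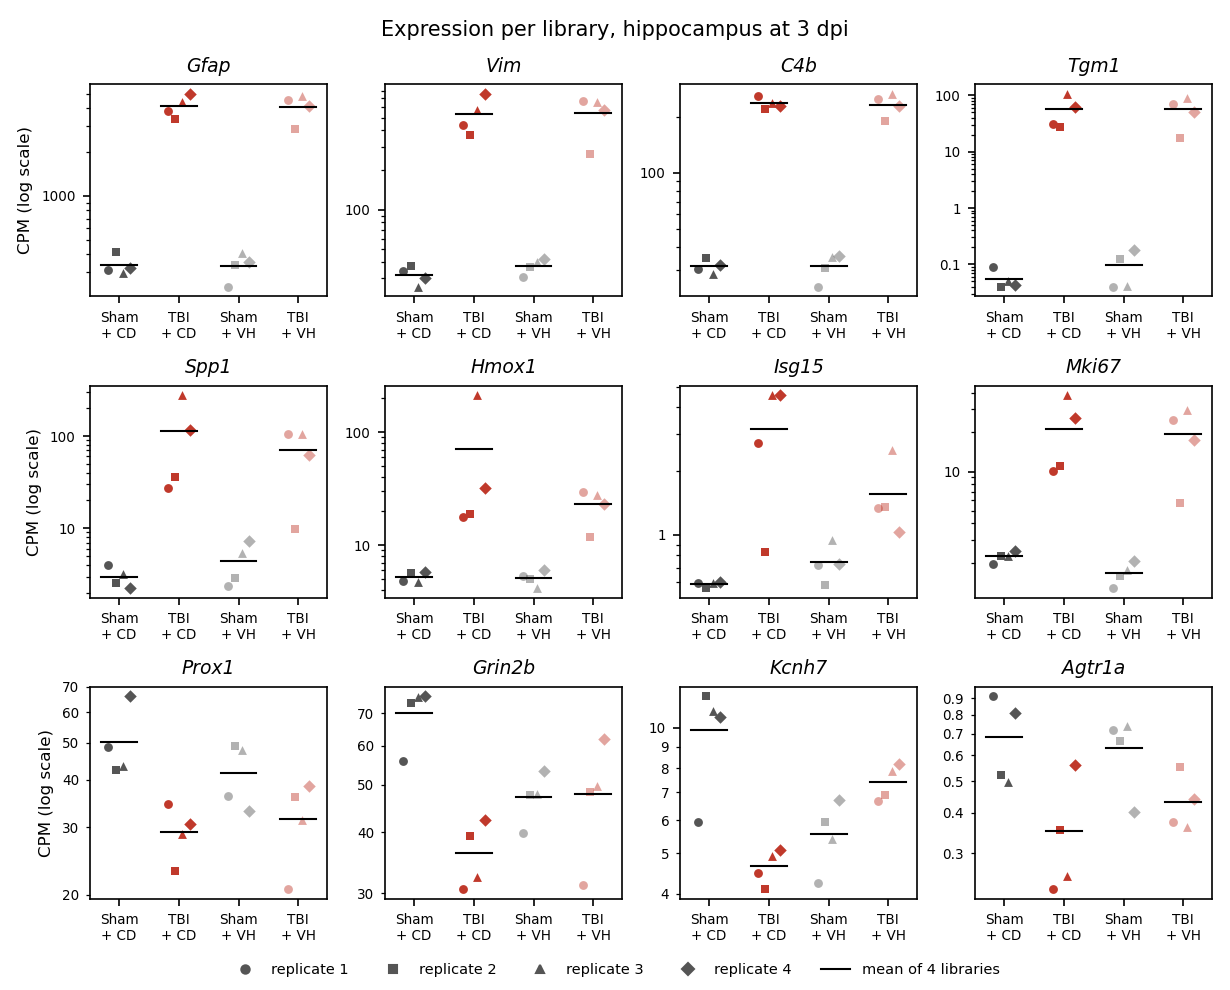
CPM (y axis, log scale) of 12 genes in each hippocampal library at 3 dpi, by group (x axis) with a symbol for each replicate and a bar for the mean of 4 libraries. Replicate 3 of TBI + CD holds the highest Hmox1 (213 CPM) and Spp1 (277 CPM), and Grin2b and Kcnh7 are higher in Sham + CD than in Sham + VH.

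Complement genes rose in 18 of 22 members, and none fell (median 1.66), where 14.4% of all genes rose. C1qb, part of the molecule that starts the classical pathway, rose from 40.05, 40.3, 42.04 and 35.1 CPM to 190.2, 156, 251 and 240.3 CPM (log2 fold change 2.41 ± 0.17, FDR = 6.44e-08), and C1qc rose by 2.35 ± 0.17. C3, the central component of all pathways, rose from 0.684, 1.44, 0.892 and 1.41 CPM to 15.8, 6.98, 10.7 and 7.09 CPM (3.17 ± 0.42). Receptor genes rose as well: C3ar1, for the C3a fragment, rose from 1.69, 1.48, 1.09 and 0.852 CPM to 10.6, 8.87, 21.96 and 18.6 CPM (3.55 ± 0.37), and C5ar1, for C5a, by 3.06 ± 0.41 (2.64 without injured replicate 3). C3 was highest in injured replicate 1, whereas both receptor genes were highest in replicate 3.

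Antigen presentation genes rose in 20 of 21 members (median 1.75), where 14.4% of all genes rose. B2m, the light chain of class I, rose from 51.7, 55.3, 58.4 and 57.6 CPM to 142, 108, 145 and 161 CPM (1.32 ± 0.12, FDR = 4.27e-07), and H2-D1, a class I heavy chain gene, by 1.57 ± 0.16. The class II genes rose more on the log2 scale. H2-Ab1 rose from 0.319, 0.321, 0.248 and 0.298 CPM to 6.38, 3.12, 4.46 and 3.93 CPM (3.88 ± 0.38), H2-Aa from 0.213–0.684 to 2.56–7.32 CPM (3.38 ± 0.49) and H2-Eb1 from 0.511–1.004 to 2.01–6.62 CPM (2.54 ± 0.39). Cd74, the invariant chain that guides class II molecules, rose from 2.14, 1.48, 0.892 and 0.9799 CPM to 14.4, 5.17, 7.46 and 9.34 CPM (2.71 ± 0.42). All of these class II genes were highest in injured replicate 1 and lowest in injured replicate 2. Genes of the H2 family resemble one another, and their counts may be split between copies.

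Type I interferon genes rose in 28 of 30 members, and none fell, where 14.4% of all genes rose. Their median log2 fold change was 1.87, against 0.91 in vehicle mice, where 15 of the 30 rose. The test of the difference between the arms called none of the 30 genes, and 7 had an unadjusted p under 0.05. Interferon binds its receptor, a transcription factor complex that holds IRF9 forms, and the complex binds an interferon-stimulated response element in target promoters. Promoters were the 250 bases upstream of the start, taken from RefSeq (GRCm38.p6), and a gene counted if any of its promoters matched on either strand. The motif GAAANNGAA was present in 9 of 22 interferon genes with a promoter (40.9%). It was present in 8.18% of all 27025 genes with a promoter and in 7.41% of the 11649 tested ones. Its share was 21.4% of 14 chemokine, 18.8% of 16 antigen presentation, 13.6% of 22 reactive astrocyte and 5% of 20 channel genes. Another motif searched, TTCNNNGAA, was in 27.3% of the 22 interferon genes and 7.19% of tested genes. The same region of 4 interferon genes that hold the motif is shown, with the motif GAAANNGAA in capitals and overlapping motifs merged. Trim30a has 2 promoters in the set, of which 1 holds the motif and is shown.
Oas1a, chr5:120907526-120907775, minus strand: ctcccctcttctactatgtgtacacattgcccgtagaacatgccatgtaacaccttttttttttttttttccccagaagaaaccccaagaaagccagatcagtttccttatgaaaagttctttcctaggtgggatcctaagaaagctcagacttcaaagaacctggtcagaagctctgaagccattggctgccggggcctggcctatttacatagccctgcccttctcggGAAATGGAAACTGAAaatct
Trim30a, chr7:104465194-104465443, minus strand: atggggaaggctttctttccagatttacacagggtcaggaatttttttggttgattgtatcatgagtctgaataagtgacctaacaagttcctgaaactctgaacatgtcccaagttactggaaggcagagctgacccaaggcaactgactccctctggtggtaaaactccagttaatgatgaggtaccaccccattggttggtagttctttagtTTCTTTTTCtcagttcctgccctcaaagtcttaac
Isg15, chr4:156200819-156201068, minus strand: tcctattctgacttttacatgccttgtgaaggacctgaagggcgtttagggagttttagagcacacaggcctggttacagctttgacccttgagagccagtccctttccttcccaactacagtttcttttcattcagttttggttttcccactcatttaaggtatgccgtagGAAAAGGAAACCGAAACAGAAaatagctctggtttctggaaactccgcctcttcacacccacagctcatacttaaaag
Ifit3, chr19:34583279-34583528, plus strand: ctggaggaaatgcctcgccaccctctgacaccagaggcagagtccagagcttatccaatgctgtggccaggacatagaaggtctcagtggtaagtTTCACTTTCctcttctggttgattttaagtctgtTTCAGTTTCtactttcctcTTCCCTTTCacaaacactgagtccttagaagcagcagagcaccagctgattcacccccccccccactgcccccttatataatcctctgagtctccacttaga
Isg15 and Ifit3 were chosen for these sequences after their values were seen. The start is the one that the RefSeq promoter set gives, and the RefSeq spans of Ifit3, which begins at 34583119, and of Oas1a, which ends at 120907544, reach into or past these windows. A match describes the letters only and no binding was measured.

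All 4 genes rose after injury. Oas1a, which senses double-stranded RNA, was at 0.228, 0.441, 0.446 and 0.256 CPM in Sham + CD and 2.56, 1.38, 5.45 and 4.25 CPM in TBI + CD (log2 fold change 3.30 ± 0.49, FDR = 7.09e-05). Isg15, a ubiquitin-like modifier, was at 0.593, 0.561, 0.595 and 0.596 CPM and 2.703, 0.828, 4.57 and 4.57 CPM (2.43 ± 0.42, FDR = 3.27e-04). Ifit3, an RNA-binding antiviral protein gene, was at 3.24, 2.73, 3.72 and 2.599 CPM and 10.9, 6.19, 15.3 and 18.5 CPM (2.05 ± 0.29, FDR = 4.72e-05). Replicate 2 was the lowest injured library in each, and replicates 3 and 4 were the highest. Trim30a, a tripartite motif gene, was likewise lowest in replicate 2, at 1.23, 1.56, 2.43 and 2.05 CPM and 6.76, 3.94, 13.3 and 14.98 CPM (2.43 ± 0.36). Oas1a belongs to a family of near-identical copies. The list held the largest changes in Zbp1, a sensor of Z-form nucleic acid, with 0.0456, 0.0401, 0.0496 and 0.256 CPM and 0.932, 0.316, 3.29 and 5.33 CPM (4.57 ± 0.83), and Ifi27l2a, with 0.1604 to 0.446 and 2.33 to 9.296 CPM (4.28 ± 0.56). Ifi204, a DNA sensor gene with close copies that is no member of the list, was at 0.0852 to 0.198 and 1.58 to 8.66 CPM (5.44 ± 0.60). Stat2 (0.19 ± 0.074, FDR = 0.0554) and the nucleotide hydrolase gene Samhd1 (0.32 ± 0.096, FDR = 0.0169, under the fold threshold) were the members that did not pass. The log2 fold change of Zbp1 was 5.64 without Sham + CD replicate 4 and 3.90 without TBI + CD replicate 4.

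Of 32 chemokine and chemokine receptor genes 19 passed the filter on low counts. Of these, 13 rose and none fell (median 2.50), where 14.4% of all genes rose. The filter can pass a gene through its injured libraries alone, so the share and the median are not independent of it. Ccl4, which passed, had 2 counts over Sham + CD and 77 over TBI + CD, and Ccl8 had 3 and 43. Ccl12, a monocyte attractant, rose from 0.0912, 0.241, 0.248 and 0.0426 CPM to 3.82, 0.907, 4.93 and 4.13 CPM (4.43 ± 0.54, FDR = 1.13e-05). Cxcl16, which is a membrane-bound chemokine and scavenger receptor, rose from 0.821, 0.842, 0.843 and 0.852 CPM to 4.85, 3.75, 5.96 and 7.33 CPM (2.70 ± 0.25). Cxcl5, a neutrophil attractant, rose from 0.0456, 0.241, 0.248 and 0.298 CPM to 2.28, 1.74, 2.96 and 1.402 CPM (3.29 ± 0.48), and Ccl6 rose by 2.50 ± 0.27. Injured replicate 2 was the lowest for Ccl12 and Cxcl16, by over 4-fold below the highest replicate for Ccl12. The neuronal chemokine Cx3cl1, the ligand of the microglial receptor Cx3cr1, had -0.24 ± 0.086 (FDR = 0.0394, under the fold threshold), and Cxcl14 had 0.026 ± 0.065.

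Of 35 genes of cytokines and their receptors 26 passed the filter on low counts. Of these, 21 rose (median 1.17), led by receptors, where 14.4% of all genes rose. Osmr, the oncostatin M receptor, rose from 4.38, 4.13, 5.403 and 4.13 CPM to 20.6, 16.9, 28.6 and 36.1 CPM (2.51 ± 0.25), and Il4ra, the interleukin 4 receptor, from 5.43, 3.57, 4.36 and 2.897 CPM to 16.4, 12.2, 30.1 and 23.2 CPM (2.34 ± 0.28). Csf2rb, the shared chain of the interleukin 3, interleukin 5 and GM-CSF receptors, rose by 2.71 ± 0.26, Tnfrsf1b, a TNF receptor, by 2.03 ± 0.21, and Il6st, the shared signalling chain gp130, by 0.32 ± 0.068. The growth factor gene Tgfb2 had -0.12 ± 0.066 (FDR = 0.186). Among 23 genes of Toll-like receptors and the inflammasome, 18 rose and none fell (median 1.59). Tlr2, a sensor of lipoproteins, rose from 0.867, 0.762, 0.644 and 0.639 CPM to 6.38, 5.01, 12.1 and 7.97 CPM (3.43 ± 0.35), its partner Tlr1 by 2.59 ± 0.34, and Tlr13, a sensor of bacterial ribosomal RNA, by 2.27 ± 0.37. Pycard, the inflammasome adaptor, rose from 1.203–1.87 to 6.94–11.99 CPM (2.64 ± 0.24). The NF-kappa-B inhibitor gene Nfkbia rose by 0.52 ± 0.13. The NF-kappa-B subunit genes Nfkb1 (0.29 ± 0.085, FDR = 0.0126) and Rela (0.30 ± 0.073, FDR = 0.00381) passed the FDR but not the fold threshold. Il6st, close to the fold threshold, was not called without Sham + CD replicate 2 (0.32) or 3 (0.29), nor without TBI + CD replicate 3 (0.32).

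Cell division genes rose in 19 of 20 members (median 2.40), where 14.4% of all genes rose. Mki67, the proliferation antigen, rose from 1.96, 2.25, 2.23 and 2.47 CPM to 10.02, 11.00, 38.6 and 25.96 CPM (log2 fold change 3.26 ± 0.48, FDR = 6.81e-05). Top2a, the topoisomerase of dividing cells, rose from 1.78, 1.804, 2.33 and 2.68 CPM to 8.95, 11.4, 35.6 and 26.3 CPM (3.26 ± 0.49). Cdk1, the kinase that drives entry into mitosis, rose from 0.411, 0.321, 0.347 and 0.511 CPM to 3.08, 2.84, 9.87 and 7.69 CPM (3.87 ± 0.55). Injured replicates 3 and 4 were at 2 to 4 times the level of replicates 1 and 2 in these genes, and the lowest injured library was still above every sham. Cyclin B1 (Ccnb1) rose by 3.98 ± 0.69, the kinase gene Aurkb by 3.63 ± 0.52 and the spindle factor gene Tpx2 by 2.14 ± 0.35. DNA replication genes rose by less: 18 of 25 members rose (median 0.53), 10 did so without injured replicate 3, and 8 without replicates 1 and 3. Of all genes 2410, 2261 and 1944 rose in the same settings. Mcm3, part of the replicative helicase, rose from 2.600, 2.97, 3.47 and 3.37 CPM to 7.64, 7.06, 19.3 and 9.78 CPM (1.83 ± 0.32, and 1.41 without replicate 3), and replicate 3 was about 2-fold above the other injured libraries. The licensing factor genes Cdt1 (1.56 ± 0.29) and Cdc6 (0.99 ± 0.34, overlapping) and the GINS subunit gene Gins2 (0.96 ± 0.24) rose as well. Pcna, the sliding clamp, rose by 0.49 ± 0.11, while the clamp loader genes Rfc1 (-0.0099 ± 0.062) and Rfc2 (0.22 ± 0.072, under the fold threshold) did not pass. Without Sham + CD replicate 4 the log2 fold change of Ccnb1 was 5.06. Cdc6 was not called without Sham + CD replicate 1, 2 or 3 (0.87, 0.99 and 0.94), nor without TBI + CD replicate 3 or 4 (0.58 and 0.98).

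Vessel and matrix genes changed less uniformly. Of 26 genes of brain endothelium and vessels 8 rose and none fell, where 14.4% of all genes (2410) rose. Without injured replicate 3, 5 rose, and 4 without replicates 1 and 3. Of all genes 2261 and 1944 rose in these settings. Icam1, a leukocyte adhesion molecule, rose from 2.01, 1.403, 1.09 and 1.41 CPM to 9.09, 4.93, 7.49 and 7.25 CPM (2.28 ± 0.29), and Vcam1, a second one, from 28.6, 22.7, 23.6 and 20.7 CPM to 44.1, 31.4, 43.7 and 54.1 CPM (0.86 ± 0.16). Mfsd2a, the lipid transporter of the blood-brain barrier, rose from 15.5–17.6 to 24.7–27.00 CPM (0.67 ± 0.076), and Slc2a1, its glucose transporter, by 0.44 ± 0.074. Von Willebrand factor (Vwf) was higher by 0.79 ± 0.23 with overlapping groups. The tight junction gene Tjp1 (0.20 ± 0.080, FDR = 0.0705) and the thyroid hormone transporter gene Slco1c1 (0.45 ± 0.19, FDR = 0.0804) did not pass.

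Of 29 collagen and matrix genes 8 rose and none fell (median 0.40), where 14.4% of all genes rose and 5.67% fell. Loxl1, which crosslinks elastin, rose from 4.79, 4.21, 3.27 and 4.69 CPM to 10.2, 8.64, 11.4 and 11.5 CPM (1.30 ± 0.19), and the proteoglycan gene Bgn from 12.8–19.1 to 23.1–35.1 CPM (0.97 ± 0.16). Col3a1, a fibrillar collagen gene, was higher by 1.28 ± 0.38 with overlapping groups, and Aebp1, which binds collagen, by 0.95 ± 0.28. The proteoglycan gene Ncan had 0.29 ± 0.075 (FDR = 0.00692) and stayed under the fold threshold. Of 22 genes of TIMPs and metalloproteinases 7 rose and 1 fell, the latter no more than the share of all genes. Besides Timp1 the increases included Mmp19 (0.496–1.32 to 2.37–6.05 CPM, 2.44 ± 0.34), Mmp2 (2.13–2.93 to 4.42–6.52 CPM, 1.22 ± 0.19) and the membrane protease gene Adam8 (0.78 ± 0.26, overlapping). The membrane-type metalloproteinase gene Mmp16 fell (-0.40 ± 0.12), and Timp3 (0.31 ± 0.078), Mmp9 (0.16 ± 0.20) and Mmp17 (-0.11 ± 0.083) did not pass. Of 21 integrin genes 12 rose and 2 fell, beside the same 14.4% and 5.67% of all genes. Of those of leukocytes, Itgb2 rose from 3.92, 4.53, 4.51 and 3.83 CPM to 18.7, 17.7, 29.4 and 23.6 CPM (2.41 ± 0.17) and Itgam from 20.8–27.3 to 76.7–105 CPM (1.88 ± 0.13). The fibronectin receptor gene Itga5 (2.33 ± 0.36), Itgb5 (1.35 ± 0.13) and Itgb1 (0.63 ± 0.12) rose as well. The decreases were Itga8 (-0.44 ± 0.12) and Itga11, a collagen receptor gene (-0.57 ± 0.20). Several of these calls were lost with 1 library left out. Col3a1 was at 1.12 without Sham + CD replicate 4 and 1.09 without TBI + CD replicate 3. Aebp1 was at 0.82 without Sham + CD replicate 4 and 0.65 without TBI + CD replicate 1. Adam8 was not called without Sham + CD replicate 2, 3 or 4 (0.70, 0.67 and 0.76), nor without TBI + CD replicate 3 (0.39). Mmp16 was at -0.31 without TBI + CD replicate 1 and Itga8 at -0.31 without Sham + CD replicate 4. Itga11 was not called without Sham + CD replicate 1 or 4 (-0.54 and -0.38), nor without TBI + CD replicate 2, 3 or 4 (-0.50, -0.48 and -0.60).

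Among 20 oligodendrocyte genes 6 rose and none fell, where 14.4% of all genes rose. Gpr17, a receptor gene of differentiating precursors, rose from 72.3, 69.8, 68.8 and 61.01 CPM to 176, 190.1, 273 and 236 CPM (log2 fold change 1.69 ± 0.13, FDR = 1.17e-07). Olig1, a lineage transcription factor, rose by 0.65 ± 0.10, the brain-enriched myelin-associated gene Bcas1 by 0.75 ± 0.17 and the tight junction gene Cldn11 of myelin by 0.85 ± 0.20 (0.76 without injured replicate 1). The myelin genes Mbp (log2 fold change 0.26 ± 0.19, FDR = 0.317) and Mobp (0.22 ± 0.19, FDR = 0.408) did not pass. The precursor receptor gene Pdgfra had -0.037 ± 0.071.

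The largest decreases were smaller than the largest increases. Mylk3, a myosin light chain kinase, fell from 1.28, 2.49, 0.892 and 2.85 CPM to 0.606, 0.749, 0.512 and 0.2404 CPM (log2 fold change -1.84 ± 0.44, FDR = 0.00376). Tdo2, which breaks down tryptophan, fell from 8.26, 7.18, 7.29 and 9.88 CPM to 3.49, 2.800, 2.08 and 4.41 CPM (-1.36 ± 0.22, FDR = 1.77e-04). Dgkh, a diacylglycerol kinase, fell from 24.1, 27.2, 26.3 and 38.2 CPM to 11.6, 11.8, 10.2 and 14.5 CPM (-1.27 ± 0.22, FDR = 2.65e-04). The groups were apart in each, although the shams of Mylk3 differed among themselves by about 3-fold. Il1rapl1, a synaptic adhesion gene, fell from 3.12–4.73 to 1.305–2.16 CPM (-1.28 ± 0.18), the transcription factor gene Nhlh1 from 1.14–2.56 to 0.652–0.881 CPM (-1.12 ± 0.25), and Ogn, a matrix proteoglycan gene of meninges, from 5.61–7.88 to 1.35–5.27 CPM (-1.05 ± 0.28). Among transcripts without a known product, C630031E19Rik and C230071H18Rik fell, with log2 fold changes of -1.46 and -1.12. In vehicle mice the log2 fold change of Dgkh was -0.24 ± 0.21 and that of Il1rapl1 was -0.18 ± 0.18. C630031E19Rik was not called without Sham + CD replicate 4 (-1.09).

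Dentate gyrus genes fell in 6 of 10 members (median -0.53), against 5.67% of all genes. The sum over the list was 687, 696, 669 and 941.5 CPM in Sham + CD, with replicate 4 far above the rest, and 484 to 581 CPM in TBI + CD. Prox1 fell from 48.8, 42.3, 43.4 and 66.1 CPM to 34.6, 23.03, 28.8 and 30.7 CPM (log2 fold change -0.78 ± 0.19, FDR = 0.00378). Calb1, the calcium buffer calbindin of mature granule cells, fell from 109, 114, 129 and 128 CPM to 80.8, 84.00, 72.3 and 88.3 CPM (-0.56 ± 0.082, FDR = 6.77e-05). C1ql3, a secreted synaptic protein, fell from 151, 159, 164 and 176 CPM to 120.2, 111, 116 and 131 CPM (-0.45 ± 0.079), and the junction protein gene Dsp fell from 50.9, 50.2, 47.5 and 86.4 CPM to 33.4, 29.8, 16.7 and 38.1 CPM (-0.998 ± 0.25). None of these 4 overlapped between groups, and injured replicate 3 was the lowest for Calb1 and Dsp. C1ql2, another granule cell gene, had -0.091 ± 0.15 (FDR = 0.6704). The 6 decreases of the list became 3 when Sham + VH was the control, and in vehicle mice 1 member fell. Of all 16756 genes 311 and 289 fell in these comparisons.

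Genes of CA1 and CA3 neurons mostly did not pass, with 1 of 13 lower, a share near the 5.67% of all genes. Wfs1 was at 131, 181, 151 and 197 CPM in Sham + CD and 154, 171, 82.96 and 151 CPM in TBI + CD (-0.24 ± 0.17, FDR = 0.303), with replicate 3 below the rest. Fibcd1, an endocytic receptor gene of CA1, had -0.053 ± 0.11, Mpped1 -0.18 ± 0.087, and Grik4, a kainate receptor gene of CA3, -0.093 ± 0.099. The member that fell was Cpne4, a calcium-binding protein gene, from 128–168 to 95.7–119 CPM (-0.40 ± 0.096). Camk2a, the kinase of excitatory synapses, had -0.24 ± 0.090 (FDR = 0.0511). Of 13 interneuron genes 3 fell (5.67% of all genes fell). Gad1 and Gad2, the enzymes that make GABA, fell from 323, 328, 306 and 328 CPM to 252, 240.0, 249 and 252 CPM (-0.37 ± 0.049, FDR = 2.42e-05) and from 133–145 to 102–118 CPM (-0.33 ± 0.074). Reln, which encodes reelin, fell from 77.5, 74.5, 78.1 and 76.9 CPM to 52.3, 54.03, 59.3 and 57.1 CPM (-0.46 ± 0.067, FDR = 6.36e-05). These 3 genes had small spreads and separate groups, but none was called with Sham + VH as the control. The neuropeptide gene Cck (0.054 ± 0.12) and the membrane protein gene Lamp5 (-0.21 ± 0.12) did not pass. Among 12 genes of newborn neurons the transcription factors Neurod1 (-0.49 ± 0.13) and Tbr1 (-0.38 ± 0.080) fell and Sox4 rose (0.35 ± 0.12), beside 5.67% and 14.4% of all genes. The markers Dpysl3 (0.049 ± 0.070) and Tubb3 (-0.074 ± 0.080) did not pass. Cpne4 was not called without Sham + CD replicate 4 (-0.30). Gad2 fell under the fold threshold without Sham + CD replicate 4 (-0.31) and without TBI + CD replicate 1 (-0.29). Sox4 was not called without Sham + CD replicate 3 or 4 (0.32 and 0.32), nor without TBI + CD replicate 3 (0.26).

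Many receptor and channel genes fell. Of 31 glutamate and GABA-A receptor genes 16 fell and 1 rose (median -0.34), where 5.67% of all genes fell. Grin2b, an NMDA receptor subunit, fell from 55.8, 73.6, 75.6 and 75.8 CPM to 30.6, 39.3, 32.5 and 42.4 CPM (log2 fold change -0.96 ± 0.16, FDR = 2.63e-04). Grin2a, its alternative subunit, fell from 25.1, 31.9, 31.2 and 36.1 CPM to 14.7, 18.2, 15.1 and 20.2 CPM (-0.86 ± 0.17), and Gabrd, the delta subunit of GABA-A receptors outside synapses, from 25.5, 21.9, 21.1 and 32.8 CPM to 19.2, 15.4, 14.4 and 16.1 CPM (-0.64 ± 0.14). The injured libraries lay below every Sham + CD library in each. The AMPA receptor subunit genes Gria2 (-0.50 ± 0.10) and Gria1 (-0.35 ± 0.078) fell, as did Gabrb2 (-0.54 ± 0.075), and the obligatory NMDA subunit gene Grin1 had -0.27 ± 0.089, under the fold threshold. The member that rose was Grm3, a metabotropic receptor gene that astrocytes also express (0.34 ± 0.093). Of 33 voltage-gated channel genes 20 fell and none rose (median -0.34). Kcnb2, a delayed rectifier, fell from 8.89, 10.1, 10.2 and 9.93 CPM to 5.54, 5.68, 6.103 and 6.33 CPM (-0.72 ± 0.11, FDR = 6.72e-05). Kcnh7, of the ERG family of potassium channels, fell from 5.93, 11.9, 11.01 and 10.7 CPM to 4.47, 4.102, 4.93 and 5.09 CPM (-1.09 ± 0.18, FDR = 2.24e-04). Kcnq3, of the M-current, fell from 36.8, 41.2, 43.3 and 54.8 CPM to 24.4, 29.9, 21.6 and 32.6 CPM (-0.70 ± 0.14). Again no injured library reached a Sham + CD library. The modulatory potassium channel subunit gene Kcng3 (-1.12 ± 0.25), the ether-a-go-go family member Kcnh4 (-0.84 ± 0.19) and Scn8a, a sodium channel of axon initial segments (-0.41 ± 0.081), fell as well. Gria1 fell under the fold threshold without Sham + CD replicate 4 (-0.29) and without TBI + CD replicate 3 (-0.27), Scn8a without TBI + CD replicate 3 (-0.31) and Grm3 without TBI + CD replicate 4 (0.27).

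These decreases depended on the candesartan shams. With Sham + VH as the control, 2 receptor genes and 3 channel genes fell, where 311 of all 16756 genes fell, against 950 with Sham + CD. Grin2b was at 39.7, 47.6, 47.8 and 53.4 CPM in Sham + VH and 31.2, 48.3, 49.8 and 61.9 CPM in TBI + VH, and Kcnh7 at 4.23, 5.95, 5.41 and 6.69 CPM and 6.66, 6.896, 7.87 and 8.18 CPM. The Sham + VH values of Grin2b lay below those of Sham + CD, and TBI + CD had the lowest mean. Without injured replicate 3 the channel genes that fell numbered 11, and 631 of all genes fell.

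The genes that fell were also long. The median genomic span on RefSeq was 96.2 kb for the decreases, 18.6 kb for the increases and 23.5 kb for genes that were not called. Il1rapl1 lies on chrX and spans 1375 kb, Grin2b spans 460.4 kb, Kcnh7 491 kb and Kcnb2 437 kb. Divided into 10 classes of span, 1.74% of the shortest class and 21.7% of the longest fell. The median log2 fold change moved from 0.14 to -0.18 over the same classes in candesartan mice and from 0.04 to -0.06 in vehicle mice. The mean log2 CPM of the longest class minus that of the shortest ranged from 1.98 to 2.09 over the Sham + CD libraries, and after injury it ranged from 1.605 to 1.77, with no overlap. It was 1.86 to 1.99 in Sham + VH and 1.64 to 1.86 in TBI + VH. Among genes with a span alone 848 fell, and with the trend of each library on span removed 634 did, 8 of the receptor genes and 11 of the channel genes among them. RNA integrity values were above 8 per the labels, individual values were not used here, and the part of RNA quality in the trend was not tested.

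**Figure D4:**
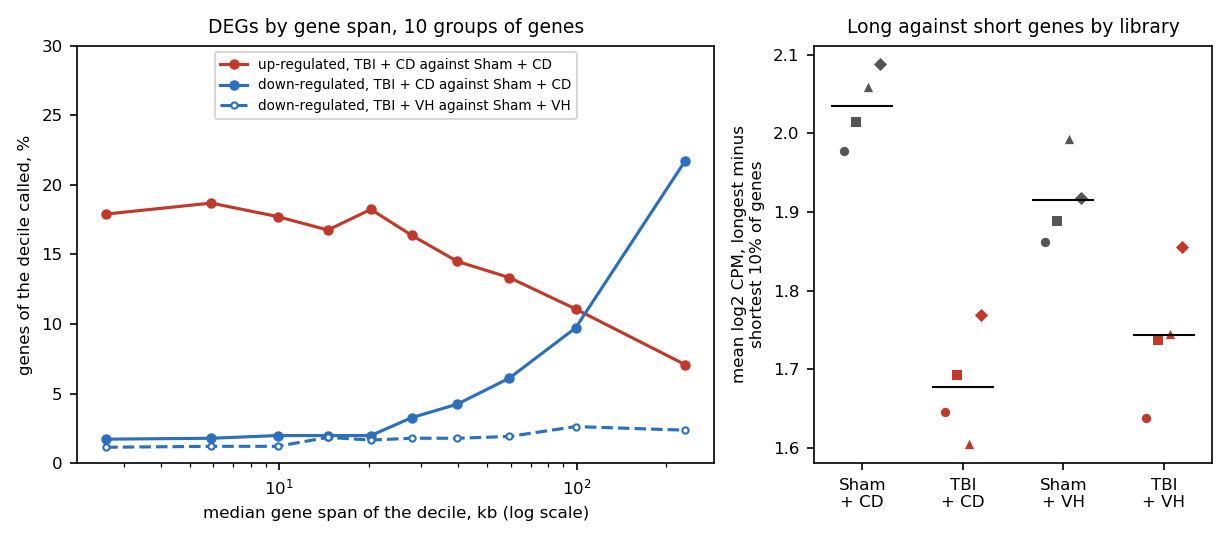
Left, percent of genes called (y axis) in 10 classes of genomic span against the median span of the class in kb (x axis, log scale). Right, mean log2 CPM of the longest class minus that of the shortest (y axis) in each library by group, with bars for group means and a symbol for each replicate. The share of genes that fell with candesartan runs from 1.74% in the shortest class to 21.7% in the longest, and TBI + CD libraries (1.605 to 1.77) lie below Sham + CD libraries (1.98 to 2.09).

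Immediate early genes, which neurons switch on with activity, were called in both directions. Of 22 members 4 rose and 6 fell, where 14.4% of all genes rose and 5.67% fell. Atf3, a stress-induced transcription factor, rose from 0.502, 0.441, 0.496 and 0.895 CPM to 2.703, 2.33, 3.84 and 3.005 CPM (log2 fold change 2.34 ± 0.41, FDR = 3.70e-04), and the stress response gene Ier3 by 0.80 ± 0.24. The other increases were the transcription factor genes Fosl1 (0–0.198 to 0.118–1.24 CPM, 3.13 ± 0.82) and Maff (0.248–0.7298 to 0.789–1.68 CPM, 1.41 ± 0.31). Npas4, a calcium-dependent transcription factor, fell from 12.04, 13.8, 8.72 and 10.1 CPM to 8.25, 10.6, 4.71 and 5.57 CPM (-0.62 ± 0.22, FDR = 0.0364). Egr4 fell from 12.8, 15.4, 10.2 and 11.6 CPM to 9.598, 10.8, 7.16 and 5.97 CPM (-0.58 ± 0.21). Both decreases overlapped between groups, with injured replicates 3 and 4 low. Arc (-0.47 ± 0.23), Egr1 (-0.49 ± 0.21) and Jun (0.084 ± 0.099) did not pass. The decreases numbered 2 without injured replicate 3, 1 without replicates 1 and 3, and 0 with Sham + VH as the control. Npas4 was not called without Sham + CD replicate 1 or 2 (-0.59 and -0.51), nor without TBI + CD replicate 3 or 4 (-0.44 and -0.49). Egr4 was not called without Sham + CD replicate 1, 2 or 4 (-0.57, -0.46 and -0.61), nor without TBI + CD replicate 3 or 4 (-0.49 and -0.42). Ier3 was not called without Sham + CD replicate 4 (0.67), nor without TBI + CD replicate 3 (0.68), and Fosl1 was at 4.23 without Sham + CD replicate 3 and 2.53 without TBI + CD replicate 3.

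Cytosolic ribosomal protein genes were added as a list after the data were seen and have short spans. Of 78 members 35 rose and 1 fell (median 0.32), where 14.4% of all genes rose and 5.67% fell. Rplp0, the stalk protein, rose from 131, 132, 120.0 and 116 CPM to 188, 175, 206 and 192 CPM (0.61 ± 0.069, FDR = 5.13e-06), and Rps9 from 119, 116, 117 and 119 CPM to 165, 155, 185 and 182 CPM (0.54 ± 0.057, FDR = 2.53e-06). Rpl41 rose by 0.53 ± 0.074, Rpl39 by 0.57 ± 0.12, Rplp1 by 0.36 ± 0.051 and Rps3 by 0.35 ± 0.048, while Rpl4 (0.19 ± 0.052) stayed under the fold threshold and Rpl9 fell (-0.47 ± 0.13). The increases numbered 9 with the span trend removed, 8 with Sham + VH as the control, and 5 in vehicle mice. Of all genes 2257 rose with the span trend removed. With Sham + VH as the control 1719 of 16756 rose, and in vehicle mice 1507 (8.99%). Copies of these genes elsewhere in the genome can share reads with them. Respiratory chain genes, added likewise, passed both thresholds upward in 4 of 75 members (14.4% of all genes did), while 31 members were higher without overlap of the groups (17.8% of all genes were) and the median was 0.13. The 4 were Cox7a1 (0.81 ± 0.27), Ndufc2 (0.35 ± 0.069), Atp5e (0.35 ± 0.087) and Ndufa7 (0.33 ± 0.068). None of them was called with the span trend removed. The main subunit genes Atp5a1 (-0.018 ± 0.048) and Sdha (-0.084 ± 0.040) did not pass. All 4 respiratory chain calls were lost with some library left out. Cox7a1 was not called without Sham + CD replicate 2 or 3 (0.66 and 0.71), nor without TBI + CD replicate 2 (0.78). Atp5e was not called without Sham + CD replicate 4 (0.29), nor without TBI + CD replicate 3 (0.31). Ndufa7 was not called without Sham + CD replicate 4 (0.30) and Ndufc2 without Sham + CD replicate 1 (0.31).

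The renin-angiotensin system, on which candesartan acts, had 13 members tested, of which 2 rose and 3 fell, while 14.4% of all genes rose and 5.67% fell. Agtr1a, the receptor that the drug blocks, was at 0.912, 0.521, 0.496 and 0.809 CPM in Sham + CD and 0.233, 0.355, 0.256 and 0.561 CPM in TBI + CD (log2 fold change -0.95 ± 0.32, FDR = 0.0316). Agtrap, which binds that receptor and promotes its uptake, rose from 10.2, 8.58, 8.43 and 9.03 CPM to 17.2, 18.3, 20.9 and 19.2 CPM (1.06 ± 0.12, FDR = 3.38e-06). Agt, the precursor angiotensinogen made by astrocytes, was at 35.6, 35.4, 37.3 and 20.4 CPM and 45.8, 48.6, 32.5 and 48.1 CPM (0.44 ± 0.15, FDR = 0.0311). The groups of Agtrap were fully apart, whereas those of Agtr1a and Agt overlapped and Agtr1a was below 1 CPM throughout. Agtr1b had at most 0.1203 CPM and the chymase gene Cma1 at most 0.274 CPM, and neither passed the filter. Lnpep, the aminopeptidase that binds angiotensin IV, fell from 29.8, 29.2, 34.6 and 33.1 CPM to 17.2, 20.4, 18.8 and 25.5 CPM (-0.63 ± 0.17, FDR = 0.00887), and Mme, the peptidase neprilysin, from 5.98–7.71 to 4.09–5.73 CPM (-0.47 ± 0.13). With Sham + VH as the control 1 member rose and none fell, and without injured replicates 1 and 3 none fell. The call of Agtr1a was lost without any of Sham + CD replicates 1 and 4 (-0.79 and -0.86) and TBI + CD replicates 1, 2 and 3 (-0.81, -0.95 and -0.80). That of Agt was lost without any of Sham + CD replicate 4 (0.28) and TBI + CD replicates 1, 2 and 4 (0.42, 0.39 and 0.42).

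Other members of the system did not pass. Ace, the angiotensin-converting enzyme, was at 12.1, 9.38, 13.3 and 10.3 CPM and 74.4, 9.82, 10.1 and 13.5 CPM (1.24 ± 0.62, FDR = 0.136), and its excess was in injured replicate 1 alone, with a log2 fold change of -0.010 without it. The type 2 receptor gene Agtr2 had -0.050 ± 0.39, and Mas1, the receptor of angiotensin 1-7, -0.092 ± 0.070. The aminopeptidase genes Enpep (-0.097 ± 0.24) and Anpep (0.27 ± 0.31) and the prorenin receptor gene Atp6ap2 (-0.14 ± 0.060) did not pass either. Pparg, a nuclear receptor gene that some angiotensin receptor blockers activate, had -0.29 ± 0.27 (FDR = 0.433).

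Choroid plexus genes were high in TBI + CD replicate 1 and in 3 of 4 Sham + VH libraries. Their sum over 28 members was 274 to 368 CPM in Sham + CD and 236 to 4166 CPM in TBI + CD, where 4166 CPM was replicate 1. In Sham + VH it was 9157, 6593, 563 and 7292 CPM, and in TBI + VH 275 to 455 CPM. In vehicle mice 26 of the 28 members fell. Ttr was at 35.3, 36.4, 79.96 and 61.5 CPM in Sham + CD and 2379.9, 20.7, 7.89 and 129.7 CPM in TBI + CD (3.58 ± 1.37, FDR = 0.0533). The lysophospholipase gene Enpp2 was at 107 to 157 CPM and 1199.5, 125, 123 and 196 CPM, and the potassium channel subunit gene Kcne2 at 0.2005 to 0.383 CPM and 11.5, 0.197, 0.146 and 0.841 CPM. In all 3 genes only injured replicate 1 was far above the shams, and without it the log2 fold change was -0.015 for Ttr, 0.072 for Enpp2 and 0.48 for Kcne2. Of the 28 members 2 rose, none did so without replicate 1, and 14 did so without replicate 3. The 2 were the water channel gene Aqp1 (18.3, 0.434, 1.06 and 2.04 CPM after injury) and the cation channel gene Trpv4 (1.004, 1.32, 1.54 and 0.895 CPM before and 14.4, 2.56, 2.27 and 3.53 CPM after injury). Their log2 fold changes were 3.14 ± 1.13 and 2.24 ± 0.74, and without replicate 1 they were 0.97 and 1.23. Aqp1 also lost its call without any one of the 4 sham libraries, at 3.04 to 3.21, and Trpv4 without Sham + CD replicate 1, 2 or 4 (2.17, 2.30 and 2.12). Both turned negative with Sham + VH as the control, at -2.29 for Aqp1 and -1.69 for Trpv4. The folate receptor gene Folr1 (2.82), Kcnj13 (3.24), Tmem72 (3.72) and the carbonic anhydrase gene Car12 (0.062) did not pass. Whether plexus tissue was taken along with some hippocampi was not tested.

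Motile cilia genes rose in 4 of 24 members, a share near the 14.4% of all genes that rose, and 1 did so without injured replicate 1. Dnaic2, a dynein arm component, rose from 2.87, 3.09, 3.32 and 1.704 CPM to 5.64, 5.84, 7.16 and 4.77 CPM (1.09 ± 0.19, FDR = 3.40e-04). Foxj1, the regulator of motile cilia, was at 9.12, 13.6, 11.2 and 6.604 CPM and 26.98, 15.5, 10.3 and 13.5 CPM (0.70 ± 0.24), and Cfap126 (1.005 ± 0.34) and Tekt1 (0.68 ± 0.25) were likewise highest in replicate 1, with overlapping groups. Without replicate 1 the values were 0.37, 0.39 and 0.33. With Sham + VH as the control these 3 had negative values, at -0.30 for Foxj1, -0.48 for Cfap126 and -0.59 for Tekt1. Ccdc153 (-0.064 ± 0.49), Cfap44 (0.069 ± 0.18), Rsph9 (0.034 ± 0.11) and Tmem212 (-0.12 ± 0.59) did not pass. The calls of these 3 were lost as well without Sham + CD replicate 4 (0.54, 0.87 and 0.61) or 1 (0.66, 0.99 and 0.56), that of Cfap126 without replicate 3 (1.04) and that of Tekt1 without replicate 2 (0.74). Of 20 genes of meninges and vascular fibroblasts 2 rose and 1 fell, shares no larger than the 14.4% and 5.67% of all genes. The dicarboxylate transporter gene Slc13a3 (11.5–15.2 to 23.7–33.1 CPM, 1.13 ± 0.18) and Aebp1 rose, and Ogn fell. Aebp1 was not called without TBI + CD replicate 1 (0.65). Ptgds, the prostaglandin D synthase of the meninges, was at 312, 421, 332 and 289 CPM and 446, 238, 98.5 and 204 CPM (-0.46 ± 0.38, FDR = 0.386).

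The same injury was compared in vehicle mice, whose 8 libraries are separate. TBI + VH against Sham + VH gave 1796 DEGs (10.7%), of which 1507 rose (8.99%) and 289 fell (1.72%). Of the 2410 genes that rose with candesartan, 1402 rose with vehicle, which is 58.2% of the candesartan and 93.0% of the vehicle increases. Of the 950 that fell with candesartan, 39 fell with vehicle, which is 4.11% of the former and 13.5% of the latter. The vehicle decreases included 26 of 28 choroid plexus genes. Their sum was 9157, 6593, 563 and 7292 CPM in Sham + VH and 275 to 455 CPM in TBI + VH. The part of that tissue in the small overlap was not tested. In vehicle mice the 2410 candesartan increases had a median log2 fold change of 0.57, and 2270 of them were above 0. The 950 decreases had a median of -0.13 there, and 839 of them were below 0. The log2 fold change in vehicle mice was 2.88 ± 0.12 for C4b, 3.62 ± 0.19 for Gfap and 3.30 ± 0.32 for Gpnmb, close to the values in candesartan mice.

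The difference between the 2 responses was tested itself. At an FDR of 0.05 the edgeR interaction test called no gene (0%), with a smallest FDR of 0.0616, although 2196 genes had an unadjusted p under 0.05 and DESeq2 called 330. The 5 genes with the smallest p shared that FDR. Kcnh7 had -1.09 ± 0.18 with candesartan and 0.41 ± 0.18 with vehicle, a difference of -1.50 ± 0.25. Aldh3b1 had 1.69 ± 0.11 and 0.78 ± 0.11, a difference of 0.91 ± 0.16, and so rose in both. Slc22a18, an organic cation transporter gene, was at 0.137, 0.2005, 0.198 and 0.213 CPM and 1.305, 0.789, 0.731 and 0.922 CPM with candesartan and at 0.878, 0.499, 0.369 and 0.841 CPM and 0.625, 0.352, 0.506 and 0.479 CPM with vehicle. In that gene the vehicle shams were above the candesartan shams. Acacb, an acetyl-CoA carboxylase gene, had 0.65 ± 0.19 (not called without TBI + CD replicate 1, at 0.52) and -0.84 ± 0.19, and Tns4, a focal adhesion gene, 2.64 ± 0.44 and -0.46 ± 0.34. Against Sham + VH, the TBI + CD value of Acacb was -0.46. An FDR of 0.0616 misses the threshold, so these differences are not calls.

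**Figure D5:**
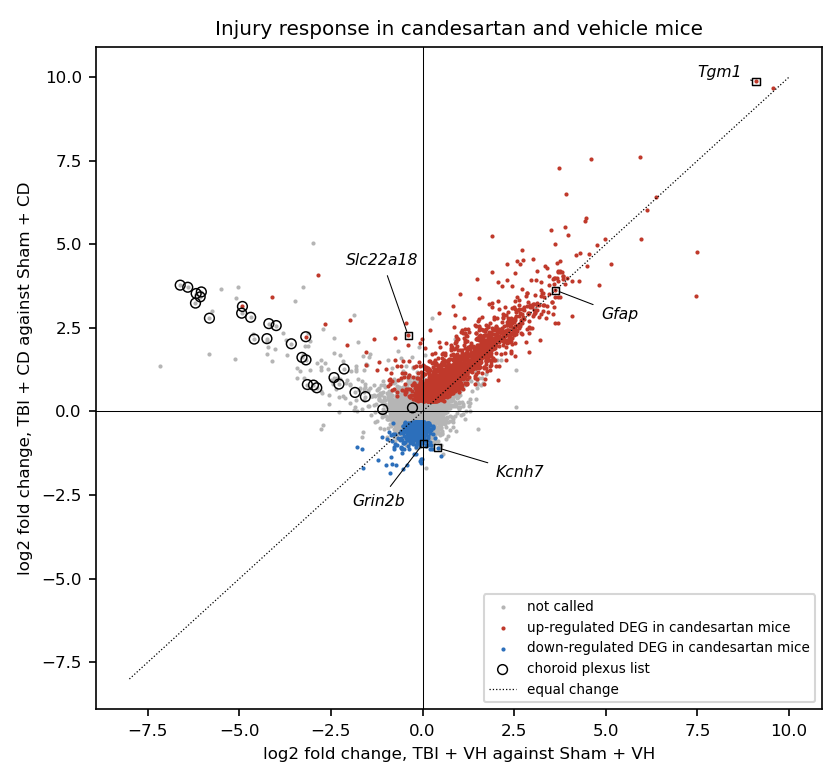
Log2 fold change of injury in candesartan mice (y axis) against that in vehicle mice (x axis) for the tested genes, coloured by their calls. The 2410 increases with candesartan had a median of 0.57 in vehicle mice, where 2270 of them lie above 0, and 1402 were called in both arms. Decreases called in candesartan mice scatter around a vehicle median of -0.13.

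Few genes responded in the other regions of candesartan mice. In the thalamus 34 genes of 17788 were called (0.191%), 33 of them higher. In the hypothalamus none was called (0%), while 962 had an unadjusted p under 0.05. The response differed between hippocampus and thalamus for 2057 genes (11.6%) and between hippocampus and hypothalamus for 2453 genes (13.8%), in a fit that treated regions as independent although they may come from the same mice. The log2 fold change of Gfap was 3.63 here, 1.44 for thalamic and 0.56 for hypothalamic libraries, and the difference had an FDR of 2.83e-05 against the thalamus and 3.80e-08 against the hypothalamus. C4b changed by 2.90, 1.81 and 0.81, with FDRs of 0.00979 and 8.46e-07. Lyz2 changed by 4.18, 0.60 and 0.76, with FDRs of 6.17e-07 and 5.10e-07. In all 3 genes the increase was larger in the hippocampus than in either other region. By list, the difference from the thalamus was called in 20 of 25 reactive astrocyte, 20 of 22 disease-associated microglia, 24 of 28 lysosome and 18 of 30 interferon genes. Gpr17 of oligodendrocyte precursors had -0.20 in the thalamus and 0.024 in the hypothalamus, against 1.69 in the hippocampus (FDR of the differences 3.83e-12 and 5.59e-11). Atf3 had 2.77 in the thalamus, and there its difference from the hippocampus had an FDR of 0.723. Agtr1a had 0.15 and 0.033 in the 2 regions, with FDRs of the difference of 0.308 and 0.262.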

How the data were processed

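The deposited table holds raw counts per gene that the authors made with HTSeq 0.9.1 after alignment to the mouse genome mm10 with MapSplice. Libraries were stranded, poly(A)-selected and paired-end. The gene annotation and the strand setting of the counting are not given in the sources used here, so overlapping, antisense and near-identical genes may share or lose reads. The authors' own comparisons used DESeq2 1.16.1 and are not used here. No column of the table went unused for lack of a sample, and the libraries of the later time point were not used.

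Counts of the 16 hippocampal libraries at 3 dpi were fitted together with edgeR 4.0.16 in R 4.3.3, with 1 mean per group, filterByExpr, TMM normalization and quasi-likelihood F tests, and p-values were adjusted over all 16756 genes tested of 32594 (Benjamini-Hochberg, FDR). Standard errors were derived from the F statistic. A fit of the 48 libraries of 3 regions gave the comparisons with thalamus and hypothalamus. CPM use the TMM-adjusted library size. Total counts per library limit precision for genes near 1 CPM, and counting intervals (exact, level 0.95) and the floor of 3 counts cover counting error only.

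The genes and lists were chosen with earlier results of these data known. Genes were named by a rule: the 10 largest increases and decreases over 1 CPM on average and with groups apart, the 10 smallest FDR values, of each list the 3 members with the most counts and up to 4 with the largest change, all renin-angiotensin genes, the 5 smallest interaction FDR values, genes that the study measured by qPCR, and cell type markers. A few members that this rule selects are left out for length, and some genes are not reported here. Chosen after their values were seen were Isg15, Ifit3, Gpc5, Il1r2, Tfrc, Mmp16, Itga8, Itga11, Grm3, Fosl1, Maff, Rpl9, Slc13a3 and the ribosomal and respiratory lists. Alternatives were DESeq2 1.42.0, RLE scaling, no filter, other thresholds, a replicate block, Sham + VH as control, a choroid plexus covariate, leaving out libraries and, added after the data were seen, removal of the trend on gene span. Promoters, spans and coordinates are from RefSeq on GRCm38.p6, where 15521 tested genes (92.6%) had a span.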

Additional observations from a re-analysis of the deposited data

Results flagged for a closer look

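In each group of 4 hippocampal candesartan libraries, a gene was looked at again when the gap between its highest or lowest library and the nearest other one exceeded Dixon's critical value for the share of the group's range, which chance gives in about 1 of 20 groups. Of 502 pairs of gene and group, 34 met this. TBI + CD replicate 1 was the high library for Tmem72 (gap 0.973 of the range), Kcnj13 (0.954), Ttr (0.949), Folr1 (0.945), Ace (0.942), Tekt1 (0.941), Kcne2 (0.939), Enpp2 (0.932), Aqp1 (0.91), Trpv4 (0.897), Cldn11 (0.856) and Car12 (0.85). TBI + CD replicate 3 was the high library for Hmox1 (0.929), Jun (0.851) and C5ar1 (0.833). TBI + CD replicate 2 was the low one for Mmp2 (0.871) and Nfkb1 (0.843), and TBI + CD replicate 4 the high one for Kcng3 (0.967).

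In Sham + CD, replicate 4 was high for Zbp1 (0.956), Dsp (0.913), Scn8a (0.886) and Atf3 (0.866) and low for Sparc (0.916), Agt (0.891) and Rpl41 (0.872). Replicate 1 was high for S100a8 (0.903), Grik4 (0.896), Tmem119 (0.874) and Csf3r (0.867) and low for Grin2b (0.891). Replicate 3 was low for Arc (0.84) and Tnfrsf1b (0.842) and held the single count of Cst7 (1), and replicate 2 was low for Isg15 (0.9). Scn8a, Grin2b, Dsp and Sparc were DEGs with groups apart all the same.

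The injury response of candesartan mice differed between hippocampus and thalamus for 2057 genes and between hippocampus and hypothalamus for 2453 genes by the test of the difference itself.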

How the results depend on the processing

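The number of DEGs was 3360, and it became 5570 with the FDR alone (2463 lower), 1077 with an absolute log2 fold change over 1 (1042 higher and 35 lower) and 2030 with Sham + VH as the control (311 lower). Without each library in turn there were 2892 to 3596 DEGs, 2199 to 2581 higher and 631 to 1083 lower, with the fewest decreases without TBI + CD replicate 3, and 422 genes fell without TBI + CD replicates 1 and 3. The interaction test called 0 genes, 330 with DESeq2, 118 with no filter on low counts and 0 to 431 with 1 library left out. These were 431 without Sham + VH replicate 3, 143 without TBI + CD replicate 2, 50 without TBI + CD replicate 3, 22 without TBI + VH replicate 1 and 1 without Sham + CD replicate 1. Sham + VH replicate 3 had a choroid plexus sum of 563 CPM, against 6593 to 9157 CPM in the vehicle shams that then remained. The part of that tissue in the 431 calls was not tested. The differences from thalamus and hypothalamus were 1571 to 2357 and 1915 to 2690 genes with 1 library left out.

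No pairing by replicate number was seen between Sham + CD and TBI + CD. Same-numbered libraries deviated with correlations of -0.028, 0.070, -0.055 and 0.079, and 1 of 4 matched its own number best. Vehicle libraries were not compared in this way, so a shared batch or pairing is not excluded. With the replicate number as a block, 3421 genes were called (2438 higher and 983 lower), and the interaction called 106. RLE scaling moved the median of all genes by -0.0070. Leaving out a vehicle library ended the call of Tekt1 (0.68 to 0.70), Gad2 (-0.31) or Egr4 (-0.56).

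Some log2 fold changes turned sign. With Sham + VH as the control they were 0.63 for S100a8, -0.058 for Timp3, 0.053 for Wfs1, 0.039 for Arc, -1.68 for Ace, -2.49 for Ttr, -1.96 for Enpp2, -2.74 for Kcne2, -2.29 for Aqp1, -1.69 for Trpv4, -0.30 for Foxj1, -0.48 for Cfap126, -0.59 for Tekt1, -0.46 for Acacb, -0.79 for Car12, -0.51 for Cfap44, -2.30 for Folr1, -2.53 for Kcnj13, -0.0083 for Mobp, 0.044 for Rfc1, -0.27 for Rsph9, -0.32 for Slco1c1 and -2.25 for Tmem72. With a choroid plexus score as covariate they were -0.44 for Ttr, -0.24 for Car12, -0.070 for Cfap44, -0.11 for Kcnj13, -0.048 for Rsph9 and -0.60 for Tmem72. With the span trend removed they were 0.12 for Grik4, -0.042 for Cck, -0.053 for Cxcl14, -0.042 for Jun and 0.055 for Rfc1. Without both TBI + CD replicates 1 and 3 they were 0.035 for Fibcd1, 0.077 for Agtr2, -0.23 for Car12, -0.15 for Cfap44, -0.0096 for Cxcl14, -0.024 for Jun, -0.064 for Rsph9 and -0.45 for Tmem72. With 1 library left out, the ranges were Ace from -0.010 to 1.54, Agtr2 from -0.29 to 0.16, Atp5a1 from -0.031 to 0.0087, C1ql2 from -0.21 to 0.056, Car12 from -0.23 to 0.18, Ccdc153 from -0.63 to 0.23, Cck from -0.081 to 0.15, Cfap44 from -0.10 to 0.18, Cxcl14 from -0.0095 to 0.084, Dpysl3 from -0.0017 to 0.11, Enpep from -0.27 to 0.075, Fibcd1 from -0.14 to 0.062, Folr1 from -0.14 to 3.27, Jun from -0.016 to 0.13, Kcnj13 from -0.20 to 3.69, Pdgfra from -0.10 to 0.0014, Rfc1 from -0.041 to 0.029, Rsph9 from -0.075 to 0.12, S100a8 from -0.71 to 1.14, Tmem212 from -0.99 to 0.25, Tmem72 from -0.90 to 4.17 and Ttr from -0.015 to 4.01. The cause of these shifts was not tested, and Ttr is itself one of the genes of the score. Genes at a few counts per library are limited by depth.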
